A study of Mus musculus with 20 samples.

Results

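Accessible chromatin was described at 9 genes of the B lineage in mouse bone marrow progenitors: Pax5, Ebf1, Dntt, Rag1, Rag2, Cd79a, Cd79b, Pou2af1 and Blk. A peak of the deposited peak set was counted for a gene when its centre lay inside that gene, or else nearest its boundary, among RefSeq protein-coding genes (the shortest where several overlapped). By this rule 75 of 125343 peaks belonged to the 9 genes: 28 to Ebf1, 15 to Pax5, 11 to Dntt, 10 to Blk, 7 to Pou2af1, 2 to Rag1, and 1 each to Rag2 and Cd79b. No peak was named for Cd79a, so 8 of the 9 members have values. A gene name on a peak marks a neighbour and does not show that the peak acts on the gene.

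The assay was ATAC-seq, in which a transposase cuts open DNA and tags it for sequencing, on cells sorted as lineage-negative, Kit-positive and Sca1-positive (LSK), the marrow fraction of stem cells and multipotent progenitors. There were 20 libraries, 4 for each of 5 genotypes, all C57Bl/6J, and each library pooled the marrow of 2 mice aged 3 to 4 months. WT mice carried Vav-Cre, a recombinase driven by a promoter active throughout the blood system, and no mutant allele. Mice of the 3 Idh genotypes carried Vav-Cre and, beside 1 normal allele, 1 mutant allele that Cre activates: R172K or R140Q of Idh2, or R132H of Idh1. Tet2-/- mice lacked Tet2, and their label names no Cre, so an effect of Cre and of the loss of Tet2 cannot be told apart there. These enzymes are linked in textbook accounts: the mutant isocitrate dehydrogenases make 2-hydroxyglutarate, which inhibits dioxygenases such as Tet2, and Tet2 oxidizes 5-methylcytosine.

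B cell development begins from lymphoid-primed progenitors, and Ebf1 with the E2A proteins turns on the early B cell genes, among them Pax5, which then holds the cells to the B lineage. Rag1 and Rag2 cut the immunoglobulin genes, and Dntt, the terminal transferase, adds untemplated bases at the joins. Cd79a and Cd79b are the signalling chains of the B cell receptor, Blk is a Src family kinase downstream of it, and Pou2af1 is a coactivator of octamer-binding factors at B cell promoters. Rag and Dntt transcripts are known from a subset of LSK cells, whereas the receptor genes are used later. In a bulk library, fewer cells with an open site and a site less open in each cell cannot be told apart.

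RefSeq promoters (GRCm38.p6, the assembly of mm10) were matched for 7 of the 9 members, with 8 start sites in all, since Ebf1 had a pair of them. Cd79b and Blk had no entry in the table used. The 250 bases before the start are shown for 4 of these windows, 3 that lay under a peak (Pax5, the first Ebf1 start and Rag1) and 1 that did not (Dntt). Capitals mark CpG dinucleotides, the bases at which methylation occurs. The windows are Pax5 chr4:44710695-44710944 (minus strand), Ebf1 chr11:44617850-44618099 (plus strand), Rag1 chr2:101649533-101649782 (minus strand) and Dntt chr19:41029025-41029274 (plus strand), each written 5′ to 3′ on its own strand.
Pax5: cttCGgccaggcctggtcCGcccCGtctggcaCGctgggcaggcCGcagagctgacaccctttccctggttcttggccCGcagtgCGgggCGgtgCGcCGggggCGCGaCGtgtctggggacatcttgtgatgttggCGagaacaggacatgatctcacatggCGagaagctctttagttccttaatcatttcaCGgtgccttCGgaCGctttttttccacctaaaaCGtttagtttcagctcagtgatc
Ebf1: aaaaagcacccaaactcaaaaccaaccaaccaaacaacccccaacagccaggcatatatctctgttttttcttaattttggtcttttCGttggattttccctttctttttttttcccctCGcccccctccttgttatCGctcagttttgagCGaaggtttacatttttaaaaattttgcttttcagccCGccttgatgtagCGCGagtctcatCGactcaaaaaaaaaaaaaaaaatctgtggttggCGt
Rag1: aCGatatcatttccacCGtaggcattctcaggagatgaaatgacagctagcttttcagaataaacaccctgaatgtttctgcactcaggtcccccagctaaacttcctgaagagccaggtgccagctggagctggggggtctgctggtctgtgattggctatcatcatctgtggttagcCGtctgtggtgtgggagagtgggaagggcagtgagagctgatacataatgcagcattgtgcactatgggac
Dntt: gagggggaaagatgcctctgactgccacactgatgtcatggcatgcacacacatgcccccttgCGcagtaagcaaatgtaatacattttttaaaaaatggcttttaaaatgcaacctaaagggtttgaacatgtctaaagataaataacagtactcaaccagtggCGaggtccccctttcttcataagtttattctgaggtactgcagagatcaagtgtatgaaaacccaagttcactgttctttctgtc

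These windows differ in how many CpG they hold: 19 for Pax5, 9 for Ebf1, 3 for Rag1 and 2 for Dntt. The windows not printed held 14 CpG (second Ebf1 start), 6 (Cd79a), 5 (Pou2af1) and 3 (Rag2), and no peak overlapped them. Over all 32851 RefSeq windows of this length, 50.5% lay under a peak, and the share was 14.9% with 0 to 4 CpG, 48.3% with 5 to 9 and 93.5% with 10 or more. The second Ebf1 start therefore had no peak although most windows of its CpG class did, and Rag1 had a peak although most of its class did not. The RUNX motif TGTGGT was found on either strand in 1 place in the first Ebf1 window and in 2 places in the Rag1 window, and 14.0% of all windows hold it. These matches describe the letters of the windows and were not tested against binding. No genome sequence was used here, so the distal peaks described next are given by position alone.

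Counts in peaks ran from 10.5 M to 27.89 M per library, so 1 CPM (1 count per M counts, scaled between libraries by TMM) stood for 10.27 to 28.35 counts. Within genotypes, log CPM values of libraries correlated at 0.9673 to 0.9858 across peaks. Peaks at Xist split the libraries into 10 with 23.92 to 29.86 CPM and 10 with 3.827 to 4.663 CPM, 2 of each kind in every genotype, and results within these sets are given, or counted among the alternative settings, where a call described here was lost or gained. Of the 9 peaks centred inside Tet2, 0 were called in Tet2-/- (mean 0.639 to 1.28 times that of WT), so accessibility there does not check the knockout label. Of the markers of the sorted cells, summed over the peaks of a gene, WT had 8.73 CPM per kb of peak at Kit, 14.7 at Cd34 and 21.6 at Flt3, but Ly6a, which encodes the Sca1 used in the sort, had 2.94 CPM per kb. That was below the mature B and T cell markers Ms4a1 (5.27 CPM per kb) and Cd3e (4.46 CPM per kb), so accessibility did not put every marker in the order the sort implies. Of the pre-B cell genes, Igll1 had 10.6 CPM per kb over 7 peaks, whereas Vpreb1 had no peak, as Cd79a had none.

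In WT LSK cells the members differed in how open their peaks were. Levels are compared per kb of peak, from the counts of all peaks of a gene together. Rag2 stood highest at 40.3 ± 1.32 CPM per kb (SD, n = 4, as for all levels here), but its only peak, chr2:101628438-101629246, covers the RefSeq start of Iftap (101629031, minus strand), a gene that overlaps Rag2 on the other strand, and no peak covered the start of Rag2 itself. Blk followed with 15.7 ± 0.745 and Dntt with 14.4 ± 0.64 CPM per kb. Pax5 had 6.38 ± 0.269, Ebf1 5.85 ± 0.0934 and Cd79b 5.83 ± 0.395 CPM per kb. Rag1 had 4.45 ± 0.692 and Pou2af1 3.61 ± 0.559 CPM per kb. Rag2 lay above every other member in every WT library, and Blk and Dntt above the remaining 5, and Pax5 lay above Ebf1. The ranges of Blk and Dntt, of Cd79b with Pax5 and with Ebf1, and of Rag1 and Pou2af1 overlapped.

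**Figure D1:**
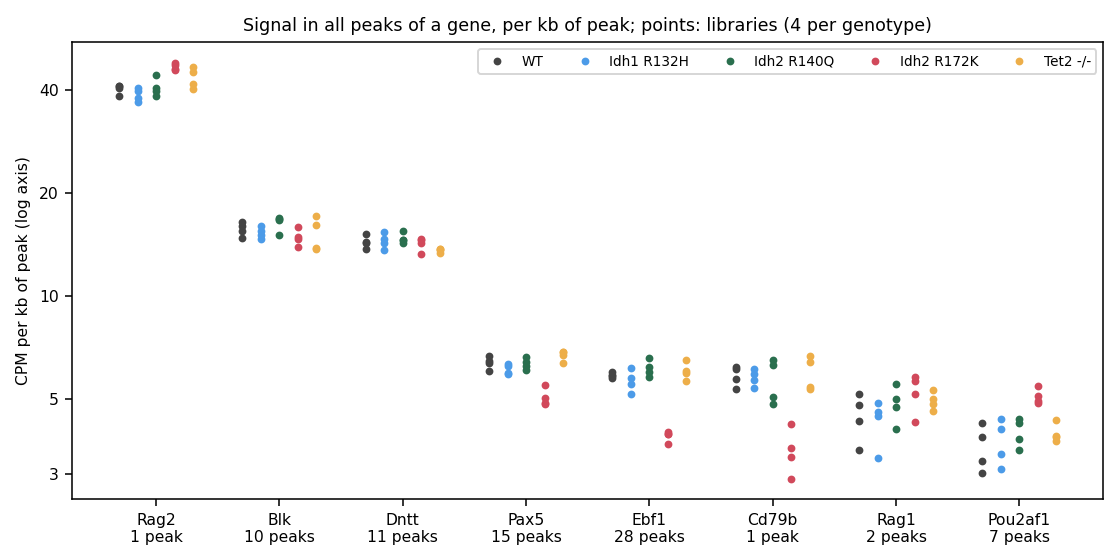
CPM per kb of peak (log axis) for the 8 members with peaks, from the counts of all peaks of a gene, with 1 point per library and 4 libraries per genotype. The Idh2 R172K points lie below those of the other genotypes at Ebf1, Pax5 and Cd79b and above those of WT at Rag2 and Pou2af1.

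Idh2 R172K was compared with WT to ask which sites of the B lineage genes open or close with this mutation. Of the 75 member peaks, 10 were raised and 30 were lowered (edgeR quasi-likelihood test, Benjamini-Hochberg adjusted p under 0.05 over all tested peaks, the meaning of raised, lowered and called throughout). The 40 calls are 53.3% of the members, against 53.0% of all 123908 tested peaks, so the share called is close to the background. Members lowered outnumbered members raised, where 25.1% of all tested peaks were raised and 27.9% lowered. The median log2 fold change was -0.24 over the members and 0.01 over all tested peaks. Lists of markers of other lineages also had negative medians in R172K, as given below. In 10 member peaks every R172K library lay above every WT library and in 26 every one lay below, where 20.4% and 23.5% of all peaks did so. With library size as the only scaling, calls over all peaks split 23279 raised to 38485 lowered in place of 31075 to 34601, and the members 8 to 31.

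Ebf1 held the most lowered peaks, with 0 raised and 16 lowered of 28. This count rests on how peaks were named: by the nearest gene of the deposited annotation the members had 51 peaks, 15 of them lowered, and Ebf1 had 1 peak. Dntt had 3 raised and 5 lowered of 11, Pax5 2 and 4 of 15, Blk 2 and 3 of 10, and Pou2af1 2 and 1 of 7. The single Rag2 peak was raised, the single Cd79b peak was lowered, and neither Rag1 peak was called. By annotated class, 5 of 46 intron peaks of the members were raised and 18 lowered (22.6% and 30.8% of all intron peaks), and 1 of 7 promoter-class peaks was raised and 3 lowered (39.8% and 15.0% of all promoter-class peaks). The raised promoter-class peak is the Rag2 one over the Iftap start. Of the lowered ones, chr11:45160887-45161180 lies 152937 bp beyond Ebf1. The Pax5 peak chr4:44703383-44704814 lost its call in 9 of 17 alternative settings, and the Ebf1 peak chr11:44616904-44617486 in 0. Of the 19 member peaks above 5 CPM in WT, 3 were raised and 9 lowered, where 35.6% and 23.9% of all peaks at that level were. These counts describe the members and were not tested against other genes.

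**Figure D2:**
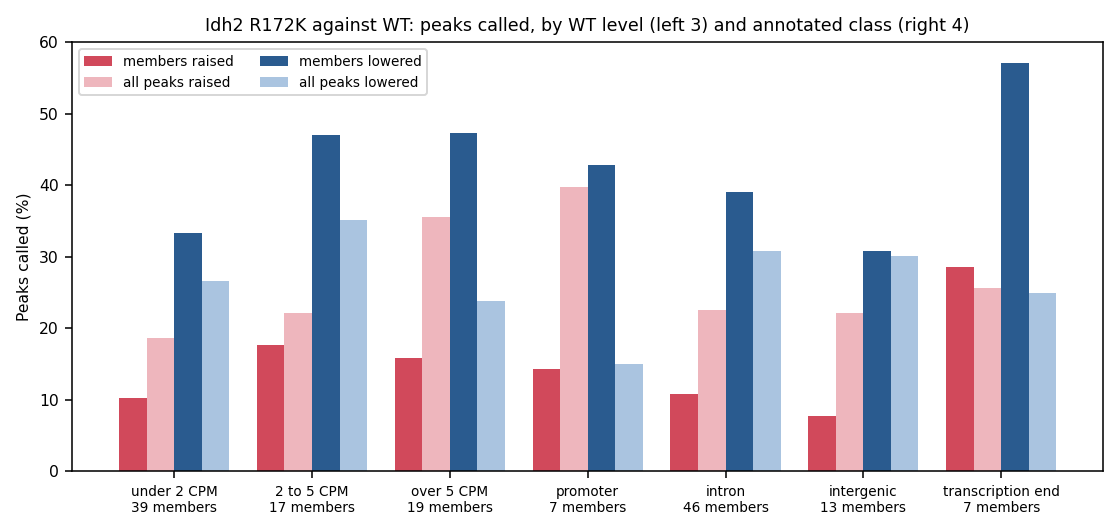
Share of peaks called raised (red) or lowered (blue) in Idh2 R172K against WT, in % on the vertical axis, for the member peaks (dark) and all tested peaks (light), by WT level and by annotated class; 2 exon-class member peaks are not drawn. In every group drawn the dark blue bar is above the light blue one, and the dark red bar is below the light red one except in the transcription end class, where 2 of 7 members were raised.

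Ebf1, the factor that starts the B cell programme, had less signal at sites spread along the gene in Idh2 R172K. Summed over its 28 peaks, WT libraries had 72.1, 70.2, 70.9 and 69.4 CPM and R172K libraries 44.5, 48.1, 47.6 and 47.6 CPM. The groups did not overlap, and the sum was lowered with a log2 fold change of -0.59 ± 0.0516 (SE; edgeR adjusted p 3.61e-10 over 17779 genes, of which 48.5% were called on such sums). The lowest p was at an intron peak, chr11:44928466-44928781, with 1.86, 2.04, 2.10 and 2.34 CPM in WT and 0.461, 0.390, 0.628 and 0.619 CPM in R172K. All R172K libraries lay below all others at this site, by a log2 fold change of -1.93 ± 0.217 against WT (adjusted p 7.76e-10). In Idh1 R132H the same peak had 1.81, 1.71, 1.93 and 1.68 CPM, in Idh2 R140Q 1.66, 1.55, 1.75 and 1.66 CPM, and in Tet2-/- 1.12, 1.90, 1.24 and 1.20 CPM. Thus 3 of the Tet2-/- libraries stood below every WT library and replicate 2 did not.

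The promoter-class peak of Ebf1 with the most signal, chr11:44616904-44617486, ends upstream of the printed window and spans the start site implied by the deposited annotation (44617317). Its level was 6.52, 7.48, 5.85 and 6.97 CPM in WT and 4.73, 4.19, 4.29 and 5.18 CPM in R172K, again without overlap (log2 fold change -0.55 ± 0.113, adjusted p 8.6e-05). Idh1 R132H, with 6.13 to 7.91 CPM, Idh2 R140Q, with 6.77 to 7.31 CPM, and Tet2-/-, with 6.21 to 8.08 CPM, overlapped WT. The peak over the printed Ebf1 start, chr11:44618040-44618607, went from 4.33 ± 0.266 CPM in WT to 3.65 ± 0.386 CPM in R172K; its groups overlapped, and its call (log2 fold change -0.29, adjusted p 0.0378) was lost in 9 of 17 alternative settings. The steepest fall was at chr11:45160887-45161180, 152937 bp beyond the Ebf1 end and placed in the promoter class by the deposited annotation. It was faint in WT, with 0.872, 0.777, 0.657 and 0.738 CPM, and fainter in R172K, with 0.192, 0, 0.185 and 0.225 CPM (log2 fold change -2.13 ± 0.379, adjusted p 9.51e-06). The R172K values rest on 0 to 5 counts per library, and the count of 0, in replicate 2, allows up to 0.292 CPM. Idh1 R132H libraries, with 0.394 to 0.634 CPM, also lay below every WT library but were not called (log2 fold change -0.63 ± 0.293, adjusted p 0.96). Idh2 R140Q, with 0.594 to 1.10 CPM, and Tet2-/-, with 0.700 to 1.36 CPM, overlapped WT.

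Nearer the start of Ebf1, the intron peak chr11:44684527-44684912 had a mean of 1.70 CPM in WT and 0.379 CPM in R172K (log2 fold change -2.12, adjusted p 8.27e-10). A group of stronger sites further in fell less. The most open Ebf1 peak, chr11:44881001-44881875, had 11.8, 9.98, 11.3 and 10.2 CPM in WT and 8.46, 8.67, 8.05 and 6.92 CPM in R172K, without overlap (log2 fold change -0.43, adjusted p 0.00455). Its neighbour chr11:44897120-44897812 had 5.35, 5.28, 4.79 and 5.41 CPM in WT and 2.85, 2.73, 2.88 and 2.48 CPM in R172K (log2 fold change -0.93, adjusted p 3.62e-07). The 12 Ebf1 peaks that were not called had log2 fold changes on either side of 0, and none of the 28 was raised in R172K against WT.

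Pax5, the commitment factor, was lowered at a few sites inside the gene, and its most open peak differed little. An intron peak, chr4:44624659-44625285, had 3.37, 3.07, 2.96 and 2.75 CPM in WT and 0.308, 0.292, 0.369 and 0.225 CPM in R172K. R172K libraries lay below the libraries of every other genotype, with 3 to 10 counts each, and the log2 fold change against WT was -3.28 ± 0.238 (adjusted p 4.66e-15), the largest among the 75 peaks. The other Idh genotypes were also below every WT library at this site, with 1.74, 2.45, 1.89 and 2.17 CPM in Idh1 R132H and 1.55, 2.08, 2.45 and 1.46 CPM in Idh2 R140Q, but neither passed the test (log2 fold changes -0.58 ± 0.16, adjusted p 0.405, and -0.71 ± 0.165, adjusted p 0.27). Tet2-/- libraries, with 2.43, 3.12, 2.55 and 2.22 CPM, overlapped WT.

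A second deep loss lay at chr4:44671049-44671492, with 4.70, 5.48, 2.50 and 3.65 CPM in WT and 0.846, 1.07, 1.29 and 0.563 CPM in R172K (log2 fold change -2.12 ± 0.218, adjusted p 5.39e-10). The next peak at higher coordinates, chr4:44672183-44673288 had 8.91, 9.45, 8.21 and 8.12 CPM in WT and 8.42, 8.86, 7.76 and 6.42 CPM in R172K, which overlapped (log2 fold change -0.15, adjusted p 0.182). Adjacent sites of the gene thus differed in their fold changes. The most open Pax5 peak, chr4:44703383-44704814, also lies inside the noncoding gene 5730488B01Rik and spans the Pax5 start implied by the deposited annotation (44703413). It had 26.4, 26.3, 22.9 and 26.8 CPM in WT and 24.8, 20.8, 20.5 and 24.9 CPM in R172K, overlapping groups (log2 fold change -0.17 ± 0.0732, adjusted p 0.0489), and 9 of 17 alternative settings took the call away. The peak over the printed Pax5 start, chr4:44710686-44711076, was faint at 1.32 CPM in WT and 1.06 CPM in R172K and was not called (log2 fold change -0.30, adjusted p 0.234). Raised Pax5 peaks were small ones inside the gene, chr4:44577239-44577556 (mean 0.919 CPM in WT and 1.48 CPM in R172K, log2 fold change 0.70, adjusted p 0.00496) and chr4:44557869-44558493 (1.09 and 1.62 CPM, log2 fold change 0.65, adjusted p 0.0107), and each lost its call in 2 of 17 settings. The sum over the 15 peaks was 64.7, 62.2, 61.6 and 58.4 CPM in WT and 52.9, 48.7, 46.6 and 47.0 CPM in R172K, a log2 fold change of -0.34 ± 0.0461 (adjusted p 9.02e-07).

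Pou2af1, the octamer coactivator, moved the other way at its 3' end. The peak chr9:51240046-51240426, across the end of the gene, had 0.834, 0.613, 1.25 and 0.574 CPM in WT and 4.11, 3.99, 4.29 and 4.05 CPM in R172K. Every R172K library was above every library of the other genotypes, which had 0.607 to 1.46 CPM in Idh1 R132H, Idh2 R140Q and Tet2-/-, and the log2 fold change against WT was 2.40 ± 0.202 (adjusted p 3.69e-13). The neighbouring exon peak chr9:51238701-51239330 had 5.73, 4.21, 6.04 and 3.32 CPM in WT and 10.1, 9.45, 9.35 and 10.0 CPM in R172K (log2 fold change 1.03 ± 0.193, adjusted p 0.000142). A peak beyond the gene, chr9:51251523-51253105, was lowered, with 3.93 ± 0.504 CPM in WT and 2.83 ± 0.436 CPM in R172K (log2 fold change -0.48, adjusted p 0.00611), and that call was lost among the Xist-high libraries. Summed over 7 peaks the gene had 15.8, 13.4, 17.4 and 12.4 CPM in WT and 20.8, 22.2, 19.9 and 20.1 CPM in R172K, without overlap (log2 fold change 0.50 ± 0.0978, adjusted p 0.000143).

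**Figure D3:**
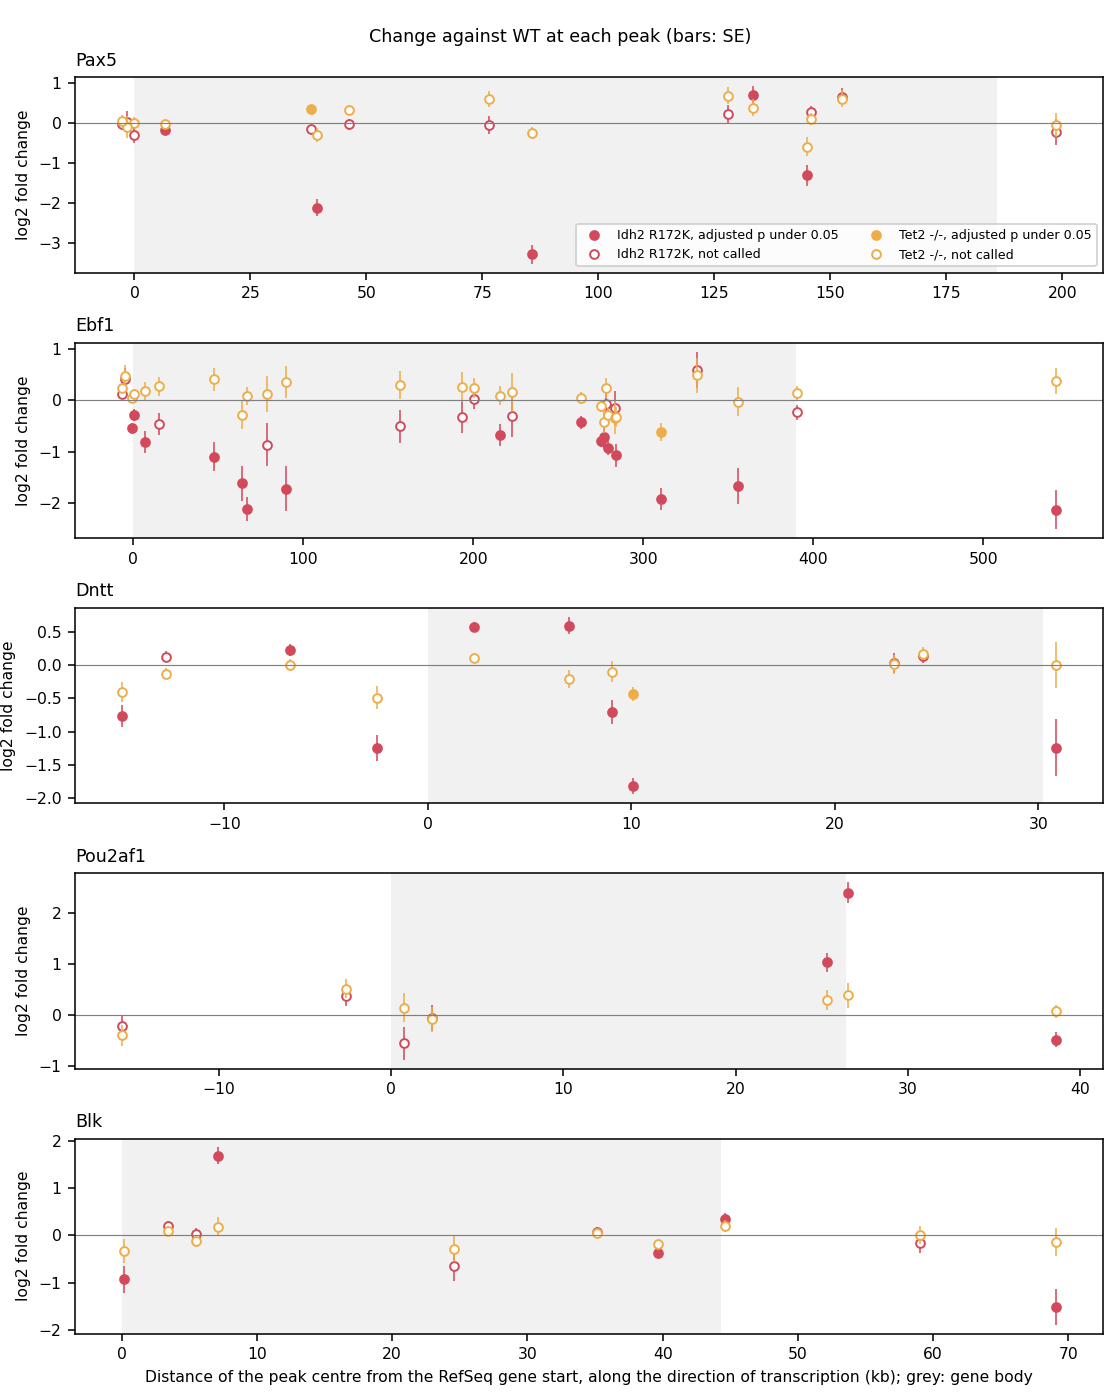
Log2 fold change against WT (vertical axis, bars for the SE) at each peak of Pax5, Ebf1, Dntt, Pou2af1 and Blk, by distance in kb of the peak centre from the gene start along transcription; the gene body is grey, and filled points passed the test. Idh2 R172K (red) is lowered at 16 Ebf1 peaks and raised at none, has both directions in the other 4 genes, and Tet2-/- (orange) passed the test at 3 peaks.

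Of the recombination genes, Dntt changed in opposite directions at sites a few kb apart. The intron peak chr19:41039016-41039647 had 12.3, 12.1, 12.9 and 12.2 CPM in WT and 3.88, 3.21, 2.96 and 3.94 CPM in R172K, a fall in every library (log2 fold change -1.82 ± 0.122, adjusted p 5.26e-16, the lowest among the members). At the strongest Dntt peak, chr19:41030930-41032189, WT had 28.2, 26.8, 25.0 and 29.1 CPM and R172K 41.4, 34.0, 40.6 and 45.2 CPM, again without overlap but upward (log2 fold change 0.57 ± 0.0721, adjusted p 1.47e-08). The ratio of the first peak to the second, in which any scaling of a library cancels, was 0.436, 0.450, 0.518 and 0.420 in WT and 0.0939, 0.0946, 0.0729 and 0.0872 in R172K, with 7772 bp between the peak centres. In Tet2-/- it was 0.282, 0.455, 0.272 and 0.258, so replicate 2 lay within the WT range and the other 3 libraries lay below it. In Idh2 R140Q it was 0.388, 0.398, 0.409 and 0.346, below every WT library, and in Idh1 R132H 0.476, 0.462, 0.477 and 0.411, which overlapped WT. The ratio was not tested, and neither peak was called in Idh2 R140Q. Their log2 fold changes there were -0.05 (adjusted p 0.988) and 0.19 (adjusted p 0.833).

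Between these Dntt peaks, chr19:41035993-41036465 was raised, with 4.09 ± 0.192 CPM in WT and 6.05 ± 1.24 CPM in R172K (log2 fold change 0.59, adjusted p 0.000227). Upstream of the gene, 2516 bp from the start whose window is printed above, chr19:41026599-41026920 had 7.32, 7.73, 6.04 and 6.40 CPM in WT and 2.54, 3.21, 3.55 and 2.31 CPM in R172K (log2 fold change -1.25 ± 0.196, adjusted p 9.85e-06). Because rises and falls met, the sum over the 11 Dntt peaks was 107 ± 4.76 CPM in WT and 105 ± 4.76 CPM in R172K (log2 fold change -0.02, adjusted p 0.725). Similar pairs of opposite sites stood in Blk, Pax5 and Pou2af1, taken as the lowered and the raised peak of lowest p. The ratio of lowered to raised went from 16.3 ± 1.8 in WT to 3.92 ± 0.451 in R172K at Blk. At Pax5 it went from 3.32 ± 0.356 to 0.203 ± 0.0451, and at Pou2af1 from 5.13 ± 1.14 to 0.69 ± 0.112. These pairs were picked for their opposite calls, and the ratios are a description.

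Rag1 was not called at either of its peaks over all libraries. The peak over the printed Rag1 start, chr2:101649322-101649792, had 2.01, 1.31, 2.23 and 2.34 CPM in WT and 2.61, 2.82, 1.96 and 3.04 CPM in R172K, overlapping groups (log2 fold change 0.38 ± 0.182, adjusted p 0.0742). It was 2.07 to 3.26 CPM in Tet2-/-, 1.77 to 2.06 CPM in Idh1 R132H and 1.96 to 2.92 CPM in Idh2 R140Q. It passed the test in 4 of 17 alternative settings: with cyclic loess (log2 fold change 0.49, adjusted p 0.0241), without R172K replicate 3 (0.53, adjusted p 0.0224), without WT replicate 4 (0.49, adjusted p 0.0396) and among the Xist-high libraries (0.70 ± 0.267, adjusted p 0.04). Among the Xist-low libraries the value was 0.12 ± 0.231, and the difference between the sets was not tested. The Rag2 peak, which covers the start of Iftap, had 30.3, 32.6, 31.9 and 33.0 CPM in WT and 40.0, 39.9, 38.4 and 39.3 CPM in R172K, without overlap (log2 fold change 0.30 ± 0.0653, adjusted p 0.000163). Tet2-/- libraries 1 and 2 of this peak, at 38.1 and 37.0 CPM, stood above WT and libraries 3 and 4, at 31.6 and 32.8 CPM, did not. The first 2 are the Xist-low ones, and the Tet2-/- log2 fold change here was 0.28 ± 0.0731 (edgeR adjusted p 0.0241) among the Xist-low and -0.03 ± 0.0828 (adjusted p 0.906) among the Xist-high libraries, a difference that was not itself tested; over all libraries it was 0.12 ± 0.0649 (adjusted p 0.352).

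Of the receptor genes, Cd79b had a single broad peak, chr11:106313528-106314853, which spans the start site implied by the deposited annotation (106314762). It had 8.04, 7.03, 7.75 and 7.50 CPM in WT and 5.85, 3.99, 4.95 and 4.73 CPM in R172K, all below WT (log2 fold change -0.60 ± 0.114, adjusted p 3.01e-05). Idh1 R132H had 7.09 to 8.03 CPM, Idh2 R140Q 6.36 to 8.42 CPM and Tet2-/- 6.91 to 8.54 CPM, all overlapping WT. Blk, the receptor-linked kinase, rose at a weak intron site, chr14:63409927-63410196, with 1.40, 1.06, 1.51 and 1.27 CPM in WT and 4.88, 3.70, 3.62 and 4.33 CPM in R172K (log2 fold change 1.68 ± 0.178, adjusted p 1.74e-10). Its strongest site, chr14:63377146-63377843, was lower, with 21.5, 19.5, 21.6 and 21.7 CPM in WT and 16.2, 14.4, 14.7 and 19.1 CPM in R172K (log2 fold change -0.38 ± 0.0904, adjusted p 0.000583), a call lost among the Xist-high libraries. The Blk sum over 10 peaks was 63.5 ± 3.02 CPM in WT and 60.1 ± 3.31 CPM in R172K and did not pass the test (log2 fold change -0.08, adjusted p 0.28).

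**Figure D4:**
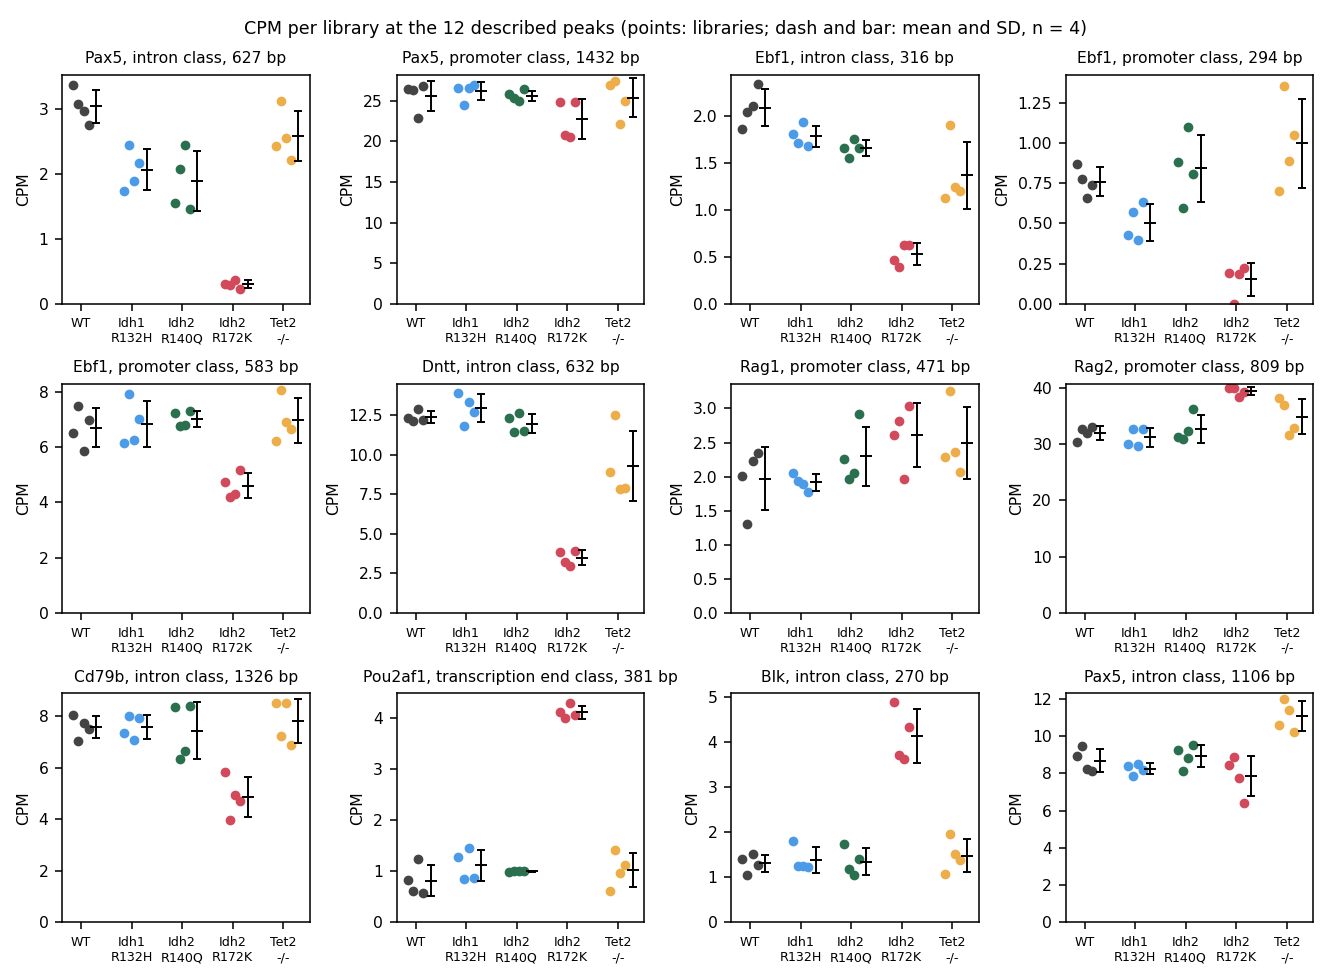
CPM (vertical axes, from 0) at 12 member peaks in every library of the 5 genotypes, with the mean and SD (n = 4) beside the points. Idh2 R172K stands apart from the 4 other genotypes at the first Pax5 panel, the 3 Ebf1 panels, and the Dntt, Rag2, Cd79b, Pou2af1 and Blk panels.

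In gene sums, R172K therefore gave 2 members raised (Pou2af1 and Rag2, the latter with 0.21 ± 0.0534, adjusted p 0.00183), 3 lowered (Ebf1, Pax5 and Cd79b) and 3 not called (Dntt, Rag1 and Blk). These 5 of 8 sums stand beside 48.5% called over all genes. Sums were scaled apart from peaks and read lower here: -0.69 for the Cd79b sum against -0.60 for its only peak. Within the Xist-low libraries 7 member peaks were raised and 28 lowered (42.1% of all tested peaks were called there), and within the Xist-high ones 11 and 18 (34.8%), with 2 libraries in each group. Beside this, the summed signal of the 8 LSK and stem cell markers was 1340 to 1430 CPM in R172K and 1230 to 1290 CPM in WT, and that of the 17 peak-bearing genes of the B cell receptor and surface list was 736 to 770 against 797 to 851 CPM. The 18 lymphoid priming and B lineage regulators had 3370 to 3420 against 3400 to 3560 CPM, which overlapped. The 5 erythroid markers with peaks had 187 to 193 against 164 to 176 CPM, while T and NK cell (466 to 500 against 459 to 487 CPM), neutrophil and monocyte (214 to 247 against 211 to 252 CPM) and stroma markers (399 to 427 against 393 to 425 CPM) overlapped. These sums are weighted to the strongest peaks, and calls per peak did not always follow them. For erythroid genes, 11 of 28 tested peaks were called lower and 5 higher, at a median log2 fold change of -0.15. Stem cell marker peaks divided almost evenly, with 67 up and 63 down (median 0.05). Lowered calls also led among T and NK cell (23 to 16), neutrophil and monocyte (11 to 4) and stroma peaks (34 to 21). Ly6g, Cd8a, Ptcra, Hba-a1 and Ahsp had no peak. The part of cell composition in the changes at the members was not tested.

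Tet2-/- was compared with WT to ask which of these sites differ in mice without the enzyme, whose label names no Cre. In Tet2-/- 3 of the 75 member peaks were called, 1 raised and 2 lowered, which is 4.0% against 3.1% of all tested peaks (0.785% raised and 2.31% lowered). With an unadjusted p under 0.05 there were 15 member peaks (15.9% of all peaks), and the median log2 fold change was 0.05 over the members and 0.01 over all. All Tet2-/- libraries lay above all WT libraries at 4 member peaks and below at 1 (3.47% and 5.11% of all peaks). The raised peak was chr4:44672183-44673288 of Pax5, with 10.6, 12.0, 11.4 and 10.2 CPM against 8.91, 9.45, 8.21 and 8.12 CPM in WT, without overlap (log2 fold change 0.34 ± 0.0916, adjusted p 0.0263). This is the site beside the second deep R172K loss, and its level in R172K, 7.86 ± 1.07 CPM, was below Tet2-/- (log2 fold change -0.50, adjusted p 3.87e-05).

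The lowered peaks were the Dntt intron site chr19:41039016-41039647, with 8.87, 12.5, 7.80 and 7.92 CPM (log2 fold change -0.43 ± 0.104, adjusted p 0.0124), and the Ebf1 site chr11:44928466-44928781 (-0.62 ± 0.175, adjusted p 0.037). At each of them Tet2-/- replicate 2 lay inside the WT range. Both also carried the lowest p of their gene in R172K, and the 2 comparisons share the WT libraries. The calls were not stable: the Ebf1 call was lost in 10 of 17 alternative settings, the Pax5 call in 7 and the Dntt call in 3, and without Tet2-/- replicate 3 no member peak was called. By Xist set, the Dntt log2 fold change was -0.63 in the high and -0.24 in the low libraries, the latter not called, and the difference was not tested. No gene sum of a member passed the test (1.51% of all genes did), and the lowest adjusted p were those of Rag2 (log2 fold change 0.11 ± 0.0529, adjusted p 0.362) and Dntt (-0.09 ± 0.0419, adjusted p 0.373).

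Idh1 R132H changed 0 of 75 member peaks by edgeR, where 0.0274% of all tested peaks were called. The same was found for Idh2 R140Q, where 0.0153% of all were called. DESeq2 also called 0 in either genotype. At an unadjusted p under 0.05 there were 7 member peaks in Idh1 R132H (5.07% of all peaks) and 6 in Idh2 R140Q (5.5% of all). Groups did not overlap at 1 higher and 4 lower member peaks in Idh1 R132H (1.42% and 1.96% of all) and at 3 and 2 in Idh2 R140Q (1.21% and 1.48%). The lowest adjusted p was 0.405 and 0.27, in each case at the Pax5 intron peak chr4:44624659-44625285 described above. Gene sums of the members had log2 fold changes between -0.06 and 0.17 in these genotypes, and none passed the test, against 0.0281% and 0.00562% of all genes.

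The R172K libraries were also tested directly against the other mutants, since a call in one comparison and none in another does not show a difference. Against Idh2 R140Q, which changes another residue of the same enzyme, 7 member peaks were higher in R172K and 30 lower (47.0% of all tested peaks were called, 21.4% higher and 25.6% lower). Against Idh1 R132H the counts were 9 and 28 (50.0% of all, 23.3% and 26.7% by direction), and against Tet2-/- 8 and 32 (44.3% of all, 20.1% and 24.1% by direction). Ebf1 had 0 peaks higher in R172K in any of these, with 17, 16 and 19 lower. At the Pax5 intron peak the log2 difference was -2.57 ± 0.262 from Idh2 R140Q, -2.70 ± 0.255 from Idh1 R132H and -3.03 ± 0.244 from Tet2-/-. At the Dntt intron peak it was -1.77 ± 0.122, -1.88 ± 0.121 and -1.39 ± 0.125, and at the Pou2af1 end peak 2.04 ± 0.195, 1.85 ± 0.187 and 2.00 ± 0.19, each called. For Rag1 none of the 3 passed the test, with 0.14 ± 0.179, 0.41 ± 0.182 and 0.04 ± 0.174. All 3 comparisons share the R172K libraries.

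Other genes of the lineage were taken as 2 lists. The list of lymphoid priming and B lineage regulators has 18 genes with 584 tested peaks. Of these, R172K raised 128 and lowered 192 (54.8% called, against 53.0% of all tested peaks), with a median log2 fold change of -0.14. Over all tested peaks 25.1% were raised and 27.9% lowered. Raised sites of lowest p were at Bcl11a (5.07 ± 0.778 to 14.2 ± 1.06 CPM), Mef2c (1.79 ± 0.546 to 5.82 ± 0.193 CPM), Ets1 (34.6 ± 3.18 to 54.6 ± 4.77 CPM) and Foxo1 (0.991 ± 0.169 to 3.10 ± 0.277 CPM), all transcription factors that early lymphoid cells need. Lowered ones were at Sox4 (12.3 ± 0.753 to 3.45 ± 0.748 CPM), Lef1 (6.99 ± 0.669 to 2.08 ± 0.362 CPM), Bach2 (5.65 ± 0.673 to 1.54 ± 0.207 CPM) and Ikzf1 (9.82 ± 0.66 to 4.01 ± 0.59 CPM), which encode further factors of early lymphocytes. Both directions therefore stood among the regulators, as among the members.

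The list of the pre-B cell receptor, the receptor and the B cell surface has 17 genes with 154 tested peaks. Of these, R172K raised 23 and lowered 59 (53.2% called, median log2 fold change -0.17), where 25.1% of all tested peaks were raised and 27.9% lowered. The stroma (-0.18), neutrophil and monocyte (-0.17) and erythroid (-0.15) lists had similar medians, so this lean was not particular to the B lineage lists. The medians of the T and NK cell (-0.07) and LSK (0.05) lists were higher. Bank1, a receptor adaptor, held a raised site (0.353 ± 0.0834 to 1.95 ± 0.244 CPM) and a lowered one (15.2 ± 0.986 to 9.48 ± 0.133 CPM). So did Syk, the kinase recruited by Cd79a and Cd79b (4.99 ± 0.336 to 8.86 ± 1.21 CPM and 12.8 ± 1.73 to 4.08 ± 0.134 CPM), and Blnk, its adaptor (1.26 ± 0.376 to 2.57 ± 0.211 CPM and 4.97 ± 0.383 to 1.43 ± 0.304 CPM). Cd72, a surface coreceptor, was lowered (5.73 ± 0.581 to 1.31 ± 0.354 CPM), and Lyn, a Src family kinase like Blk, was raised (6.86 ± 0.314 to 12.1 ± 0.297 CPM).

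In Tet2-/- the regulators had 4 raised and 17 lowered peaks (3.6% called, against 3.1% of all), and the receptor list 2 raised and 1 lowered (1.95%). The raised regulator site of lowest p, at Bcl11a (5.07 ± 0.778 to 6.87 ± 0.479 CPM), was also the one of lowest p in R172K. The lowered regulator sites of lowest p were at another Bcl11a peak (3.36 ± 0.281 to 1.60 ± 0.216 CPM), Ikzf1 (2.25 ± 0.302 to 0.978 ± 0.414 CPM), Erg (1.92 ± 0.501 to 0.817 ± 0.178 CPM) and Mef2c (3.86 ± 0.949 to 2.43 ± 0.338 CPM). Of the receptor list, Vpreb3 (1.45 ± 0.207 to 2.21 ± 0.292 CPM) and Cd40 (1.00 ± 0.23 to 1.61 ± 0.18 CPM) were raised and Syk was lowered (5.80 ± 0.919 to 3.88 ± 0.578 CPM). Idh1 R132H and Idh2 R140Q called 0 peaks in either list.

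The genes whose summed peaks followed each leading member most closely over the 20 libraries were then sought among 15116 genes. For Ebf1 these were Erv3 (Pearson r 0.971), Sez6l (0.971) and Dusp22 (0.969), and for Pax5 they were Ky (0.958), Asic2 (0.953) and Rcn3 (0.951). All 6 had lower sums in R172K than in WT, for example Erv3 with 29.2 ± 1.22 against 48.4 ± 1.62 CPM and Asic2 with 52.8 ± 5.66 against 83.1 ± 5.21 CPM. That follows from the choice, since they were picked for following sums that were lower in R172K. Dntt, whose sum was not called in R172K, had weaker matches, with Rnf141 at 0.84, Camsap2 at 0.801 and Trim37 at 0.782. The values share libraries and depth and are given as a description.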

How the data were processed

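ATAC-seq had been done on LSK cells of 5 genotypes. The authors deposited 1 table of raw counts per peak for 20 libraries and 1 annotation of the same peaks with a class, a start-site distance and Ensembl identifiers. The submitters' processing notes name mm10 and, in no stated order, MACS2, featureCounts, BWA, SAMtools, Picard and Trim Galore; versions, settings and any read shift were not given in the sources used here. Columns named for the R140Q change on Idh1 were taken as Idh2 R140Q, the only genotype with that change. Gene names come from 21900 protein-coding RefSeq genes of GRCm38.p6, and 56.3% of peak centres lay inside the named gene. Positions follow the deposited annotation, on mm10 and counted from 1.

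The test was edgeR 4.0.16 (R 4.3.3) on the deposited counts, with TMM scaling, filterByExpr (1435 peaks removed, 123908 kept, among them all 75 member peaks) and a robust quasi-likelihood fit with 1 mean per genotype, 2-sided, Benjamini-Hochberg adjusted over all tested peaks of a comparison, threshold 0.05. SE is the log2 fold change divided by the root of F. Gene sums add the counts of all peaks of a gene and were scaled and tested in the same way over 17779 genes. They had their own TMM factors, so a sum and its only peak can differ. In R172K against WT the Rag2 peak had a log2 fold change of 0.30 and its sum 0.21. The Cd79b peak had -0.60 and its sum -0.69. Both sums thus read lower than the peak, and fold changes of sums and of peaks are not on 1 scale. The fit was also run on simulated counts in which few peaks were changed. Since 53.0% of tested peaks were called in R172K, that run cannot check the scaling in this comparison. Alternatives were RLE, library size or cyclic loess scaling, no filter, DESeq2 1.42.0, only the genotypes compared, a replicate block, each library left out, the Xist-low and Xist-high libraries apart, and the deposited nearest gene.

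Values in every library are given for each member's called R172K peaks of lowest p and of largest fold change, its most open promoter-class peak and each peak called in another genotype; other peaks printed were chosen after their values were seen. From each list at most 4 genes by p are named in each direction. Patterns were compared as log2(CPM + 0.5) over genes with a mean of at least 5 CPM. The members and lists were chosen with earlier results of these data known.

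The labels give every genotype replicates 1 to 4 and do not say that the same numbers were paired. Same-numbered deviations from the group means correlated weakly with those of WT, at 0.102 to 0.232 in Idh1 R132H and 0.115 to 0.275 in Idh2 R140Q. In Idh2 R172K the values were -0.0479 to 0.122 and in Tet2-/- 0.0318 to 0.0911. The main fit used no replicate block, which was run as an alternative. In WT and the Idh genotypes, replicates 2 and 4 are the Xist-high ones, in Tet2-/- replicates 3 and 4. A pairing by number and a shared Xist set therefore cannot be told apart in the Idh genotypes.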

Additional observations from a re-analysis of the deposited data

Results flagged for a closer look

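At the 12 peaks described per library, 60 groups of 4 libraries were screened for a library far from the other 3 (a gap to its nearest neighbour, over the range, above Dixon's critical value for 4 values), and 4 stood out, where chance gives about 5% of groups. At the most open Pax5 peak the lowest WT library had 22.9 CPM beside 26.3 to 26.8 CPM in the others, and the lowest Idh1 R132H library had 24.5 CPM beside 26.6 to 27 CPM. At the Ebf1 intron peak chr11:44928466-44928781 Tet2-/- replicate 2 had 1.9 CPM beside 1.12 to 1.24 CPM; without it, 3 member peaks were lowered in Tet2-/-. At the raised Blk peak Idh1 R132H replicate 1 had 1.81 CPM beside 1.22 to 1.26 CPM.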

How the results depend on the processing

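None of the 40 member peaks called in R172K or the 3 called in Tet2-/- had a log2 fold change of the other sign in the 17 alternative fits. In R172K against WT, members lowered were 18 (all peaks called 42962) among Xist-high libraries, where 2 libraries a group remain, and 15 with the deposited nearest gene, which gives Ebf1 1 peak in place of 28 and, on gene sums, leaves 1 member raised. In Tet2-/-, members raised were 2 with only the genotypes compared, with the replicate block and in either Xist set, members lowered were 1 with DESeq2 and 0 among Xist-low libraries, and 1 gene sum was raised with the deposited nearest gene. The replicate block moved the calls over all peaks to 6631 in Tet2-/-, 96 in Idh1 R132H (34 without it) and 36 in Idh2 R140Q (19 without it). In both of these Idh genotypes it left the members at 0 calls, and in R172K at 10 raised and 30 lowered. All peaks called in Idh1 R132H were 88 with only the genotypes compared and 6 among Xist-high libraries, and in Idh2 R140Q 50 among Xist-low ones. Against Tet2-/-, R172K raised 5 members by library size. Leaving out 1 library gave, for R172K against WT, 8 to 11 members raised, 26 to 30 lowered and 58403 to 63961 peaks in all; for Tet2-/-, 0 to 2, 0 to 3 and 2115 to 4317, with 0 lowered without Tet2-/- replicate 3 or 4 and the fewest peaks without replicate 3; for Idh1 R132H 18 to 29 peaks (18 without its replicate 1) and for Idh2 R140Q 12 to 94 (94 without its replicate 2, 12 without WT replicate 1), with no member. Against Tet2-/- it gave 5 to 8 raised and 28 to 31 lowered, against Idh2 R140Q 6 to 7 and 27 to 30, and against Idh1 R132H 6 to 9 and 25 to 28. On gene sums it left 2 members raised and 3 lowered in R172K and 0 in the other genotypes. Peaks under 1 CPM rest on few counts (0 to 28 per library at chr11:45160887-45161180), which limits their precision.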
